A study of Homo sapiens with 12 samples.

Results

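The DNA replication genes are 34 human genes whose products copy the genome in S phase or switch that copying on. They were taken by name: a probe belonged to the set when its platform gene symbol equalled a member, and each gene was read by the probe with the highest mean over the arrays. The rule thus uses names and brightness and not the difference between the groups. The members were, however, chosen with earlier results of these data known. They are 34 of the 20044 genes with a named probe. The arrays held RNA of 12 samples of LNCaP, a human prostate cancer line that grows in response to androgen. Cells were transfected with pcDNA3.1_FoxA1, which carries the full-length FOXA1 cDNA (6 arrays), or with pcDNA3.1_GFP as the control (6 arrays), and all were harvested 48 h later. Both groups were grown in RPMI with serum and antibiotics, transfected with Lipofectamine2000 and extracted with DNase treatment. Whether the replicates of a group came from separate cultures is not stated, and the p-values cover only the spread between these samples, which could be technical.

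Replication starts at origins. In G1 the origin recognition complex, CDC6 and CDT1 load the ring of MCM2 to MCM7, and at the start of S phase CDC45, the GINS complex and MCM10 turn that ring into a running helicase. Polymerases then work behind it on a template clamped by PCNA, with nucleotides from ribonucleotide reductase and thymidylate synthase. Most of these genes are transcribed through E2F factors when G1 cyclins and their kinases inactivate the retinoblastoma protein. They are therefore a common readout of cycling cells. In LNCaP cells androgen stimulates proliferation, and replication genes are expressed with it.

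Values are normalised log2 intensities from bead arrays, in which 1 unit is a doubling of intensity, and differences are FOXA1 minus GFP arrays. Of the 34 genes, 32 passed the filter on dim probes, which kept probes with a mean above 7.41, the median of all probes; CCNE2 and CLSPN did not. A background estimate, the 95th percentile of probes with no stated target, lay at 7.54. All 7 measured luminal markers of the line stood above it, with TMPRSS2 the brightest at a mean of 12.99, while both measured basal keratins, KRT5 and KRT14, lay below it (KRT14 at 6.83). Of the 4 fibroblast markers COL1A1, at 7.54, just reached it. CD2 and CD68 were the 2 of 4 leukocyte markers above it, with CD68 at 8.54, and VWF, at 9.12, was the 1 of 3 endothelial markers. The transfected gene, FOXA1, had a mean of 13.43 (SD 0.13, n = 6) on the arrays labelled FOXA1 and of 13.30 (SD 0.16, n = 6) on the GFP arrays. That difference of 0.13 lay within the spread of the groups (exact permutation p = 0.165), and whether the probe reads the plasmid's transcript is not known here. Before normalization the array medians ran from 7.31 to 7.63, and 32.8% to 36.4% of probes stood above background.

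Most replication genes lay slightly higher on the FOXA1 arrays, and none passed the test. Among the 32 measured, 27 were higher and 5 were lower. Their median difference was 0.07, in a range from -0.13 (GINS2) to 0.24 (MCM4). For 11 of the genes another probe stood above background, and only 4 of these 11 probes had the sign of the probe used. Over all 12420 genes tested the median difference was 0.00883 and 53.8% were higher. With median centring of the arrays in place of the authors' normalization, 30 of 32 members and 66.1% of all genes were higher, with medians of 0.10 and 0.04. In bulk RNA, a change in the share of cells in S phase and a change of these transcripts in each cell cannot be told apart. With limma's moderated test and Benjamini-Hochberg adjustment over all genes, 0 of the 32 passed an adjusted p of 0.05, as did 0% of all genes, and every member had an adjusted p of 1.00. At an unadjusted p under 0.05 there was 1 member, UNG, which was higher on FOXA1 arrays; of all genes, 1.63% lay under that p, made up of 0.757% higher and 0.878% lower. The 2 groups of arrays overlapped for all 32 genes; they did not overlap for 0.0644% of all genes. The lean of the group depended on single arrays. Without GFP 3 the median was 0.0095, with 17 of 32 higher, beside a median of 0.00927 for all genes; without FOXA1 5 it was 0.13, with 31 of 32 higher. It was 0.12 without GFP 6, and 0.04 both without FOXA1 4 and without GFP 5. Without GFP 3, FOXA1 3 and FOXA1 4 together, 16 of 32 were higher and the median was -0.00388. These were the 3 arrays with the highest means of the hypoxia genes, a list read below (0.94, 0.81 and 0.32). Averaged over the members, GFP 3 stood lowest of the GFP arrays and FOXA1 4 highest of the FOXA1 arrays. Leaving out GFP 3 and FOXA1 4 could therefore only lower the members' mean difference.

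The 95% intervals give the precision of each gene's difference in intensity with the authors' normalization. They are not a joint limit over the genes. For all 32 genes the interval lay within a 2-fold difference in either direction, and for 28 of 32 within 1.5-fold, where 96.7% of all genes did. The 4 others reached 0.62 (MCM2), 0.60 (MCM4 and UHRF1) and 0.59 (RRM2) at their upper end. Under median centring the upper end was 0.72 for MCM4 and 0.74 for UHRF1, with all 32 intervals still within 2-fold. The median half-width was 0.273 for the members and 0.217 for all genes. No background was subtracted here; with the median of the background probes subtracted, the members' median was 0.09 and 30 of 32 intervals lay within 2-fold. The 2 beyond it were those of the dimmest of the 32, CDC6, at 0.48 with an interval from -0.56 to 1.51, and GINS1, at -0.04 with an interval from -1.15 to 1.06.

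**Figure D1:**
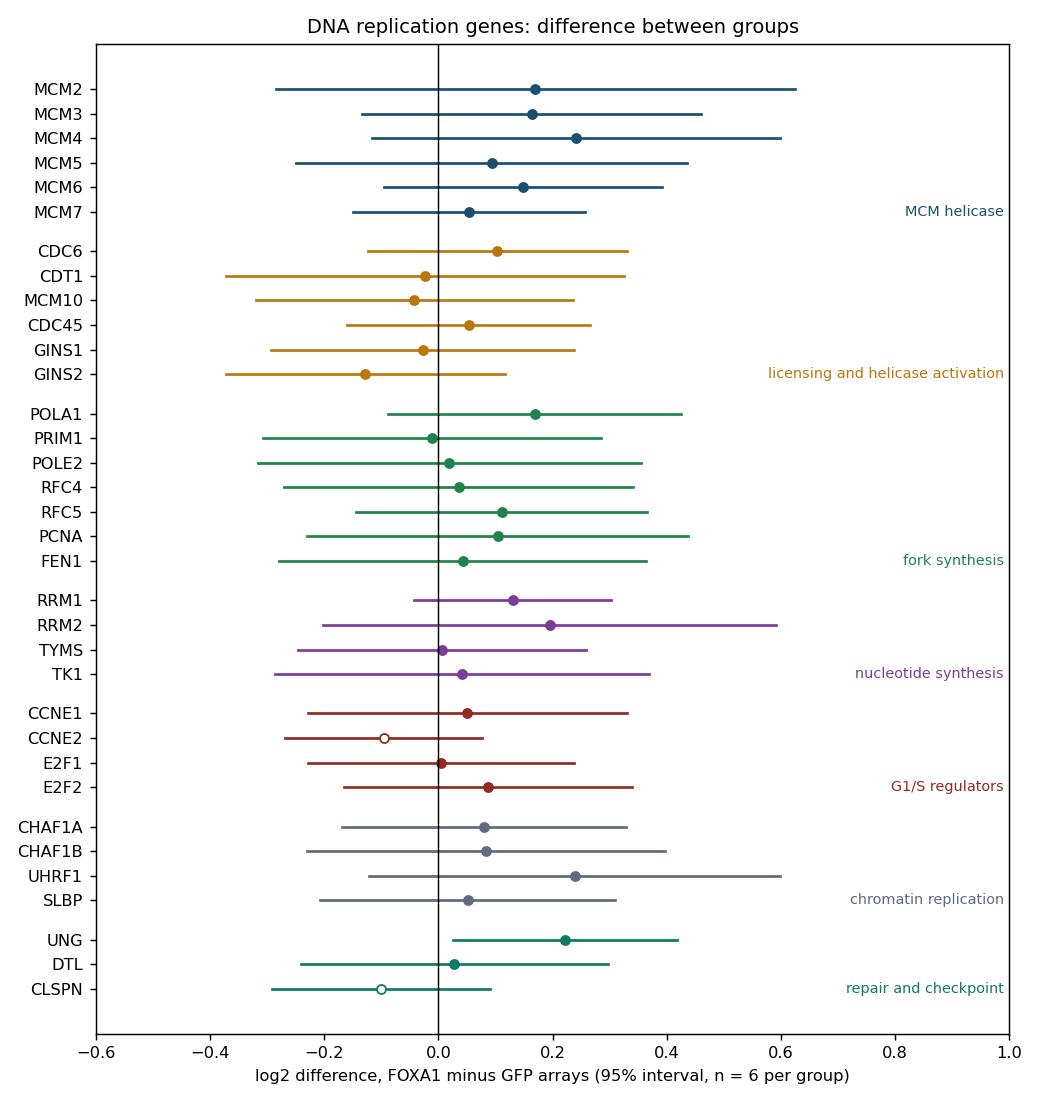
Log2 difference (FOXA1 minus GFP arrays) of each of the 34 genes with its 95% interval from limma, n = 6 arrays per group, grouped by role; open circles mark CCNE2 and CLSPN, which lay below the filter and were fitted without it. UNG alone has an interval above 0, and the 6 helicase subunits all lie to the right of 0.

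The helicase subunits MCM2 to MCM7 form the ring that unwinds DNA. All 6 were higher in the FOXA1 arrays, by a median of 0.16, and none passed the test. That median was 0.05 without FOXA1 4, 0.09 without GFP 5 and 0.10 without FOXA1 3, and without GFP 3, FOXA1 3 and FOXA1 4 together it was -0.03 with 2 of 6 higher. MCM4 had the largest difference of any member: its FOXA1 arrays ran from 10.31 over a median of 10.83 to 11.08 and its GFP arrays from 10.10 over 10.57 to 11.15. The GFP range enclosed the FOXA1 range on both sides, and the difference was 0.24 ± 0.17 (SE; exact permutation p = 0.240). A second, dimmer probe of MCM4 gave 0.11. MCM2 spread most of all members, over 1.33 on the log2 scale or 2.52-fold, from 9.75 on FOXA1 5 to 11.09 on FOXA1 4. Both its extremes lay in the FOXA1 group, with GFP arrays from 9.82 to 10.89 between them, and the difference was 0.17 ± 0.21 (SE). MCM3 differed by 0.16, MCM6 by 0.15, MCM5 by 0.09 and MCM7 by 0.05. MCM3 was read at 0.27 by its second probe, which followed the first over the arrays (Pearson's r = 0.89 over 12 arrays, as a description). MCM7 had a second probe above background that went the other way, at -0.34, so its direction depends on the probe.

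Loading and activation factors lay on both sides of 0. Of the 6, CDC6 (0.10) and CDC45 (0.05) were higher, while CDT1 (-0.02), MCM10 (-0.04), GINS1 (-0.03) and GINS2 (-0.13) were lower, for a median of -0.03. With 1 array left out their median lay between -0.08 (GFP 3 out) and 0.04 (GFP 2 out), and it was 0.03, with 4 of 6 higher, under median centring. The difference between these genes and the helicase was not tested. CDC6 is the ATPase and CDT1 the cofactor that load the ring, CDC45 and the GINS subunits join it, and MCM10 helps it start. GINS2 held the lowest difference of the set: GFP arrays from 11.06 over 11.39 to 11.72, FOXA1 arrays from 11.01 over 11.24 to 11.49. The ranges overlapped over most of their length (exact permutation p = 0.310). CDT1 was highest on GFP 2 (10.15) and lowest on FOXA1 3 (9.13), for a difference of -0.02 ± 0.16 (SE). MCM10 and CDT1 turned positive under median centring of the arrays, MCM10 also when averaged over its probes. CDC6, with a mean of 7.55, and GINS1, with 7.54, stood at the background estimate and were not measured clearly above it.

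Of the 7 genes of the synthesis machinery 6 were higher, by a median of 0.04 over all 7, and none passed the test. Without GFP 3 the median was -0.08, with 3 of 7 higher. POLA1, the catalytic subunit of the priming polymerase, differed by 0.17, and its partner primase PRIM1 by -0.01. POLE2, a subunit of the leading-strand polymerase, differed by 0.02. The clamp loader subunits RFC4 and RFC5 differed by 0.04 and 0.11, the clamp PCNA by 0.10 and the flap nuclease FEN1 by 0.04. PCNA was read from 11.71 over a median of 12.29 to 12.57 in the FOXA1 arrays and from 11.77 over 12.13 to 12.53 in the GFP arrays. Both groups of PCNA values covered nearly the same range, and its standard error of 0.16 exceeded its difference. PRIM1 and RFC4 were each read by a second bright probe that followed the first (Pearson's r = 0.92 and 0.82 over 12 arrays, as a description), at -0.04 and 0.06. The dimmer second probe of FEN1 was at -0.01 and that of PCNA at -0.10. Without GFP 3, POLE2, RFC4 and FEN1 turned negative, to -0.11, -0.08 and -0.08.

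Nucleotide supply genes were all higher by small amounts. RRM1, the large subunit of ribonucleotide reductase, ran from 12.57 over 12.81 to 12.96 in the FOXA1 arrays and from 12.56 over 12.66 to 12.77 in the GFP arrays. In RRM1, 4 of 6 FOXA1 arrays lay above every GFP array, the most of any member, while FOXA1 5 lay among the lowest GFP arrays; the difference was 0.13 ± 0.08 (SE; exact permutation p = 0.0758). The small subunit RRM2 differed by 0.20 ± 0.19 (SE), and by 0.09 without GFP 3. TYMS, which makes thymidylate, differed by 0.00685, and by -0.07 without GFP 3. The salvage kinase TK1 differed by 0.04, and by -0.05 without FOXA1 4.

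Regulators of the G1 to S transition did not separate the groups. Cyclin E1, CCNE1, differed by 0.05 and the activator E2F2 by 0.09. A second, dimmer probe of CCNE1, at a mean of 7.79, gave -0.09. E2F1 ran from 7.93 over 8.01 to 8.15 on FOXA1 arrays (SD 0.09, n = 6) and from 7.76 over 7.97 to 8.52 on GFP arrays (SD 0.26, n = 6), for a difference of 0.00506. GFP 3 stood highest, and the next GFP array stood at 8.10. Cyclin E2, CCNE2, lay below the filter and below background, with means of 6.68 on FOXA1 and 6.77 on GFP arrays. Its difference of -0.10 comes from the fit without a filter.

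Chromatin replication genes were all higher by the probes used and did not pass the test. UHRF1, which brings the maintenance DNA methyltransferase to new DNA, ran from 10.14 over 10.57 to 10.89 in the FOXA1 arrays and from 9.98 over 10.15 to 11.01 in the GFP arrays. A control array, GFP 6, stood above all FOXA1 arrays, and the difference was 0.24 ± 0.17 (SE; exact permutation p = 0.245). The chromatin assembly subunits CHAF1A and CHAF1B differed by 0.08 each, and SLBP, which binds the stem-loop of replication-dependent histone mRNAs, by 0.05. Without GFP 3, CHAF1B was at -0.01 and SLBP at -0.05. A second probe of SLBP, nearly as bright (mean 10.44 against 10.79), gave -0.01.

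The repair and checkpoint genes held the member with the smallest p. UNG, the glycosylase that removes uracil from DNA, ran from 11.72 over 11.83 to 12.08 in the FOXA1 arrays and from 11.46 over 11.63 to 11.86 in the GFP arrays. In UNG, 3 of 6 FOXA1 arrays lay above every GFP array and none lay below them. UNG differed by 0.22 ± 0.09 (SE; 95% interval 0.03 to 0.42), with an exact permutation p of 0.0325 and an adjusted p of 1.00 by limma. It was positive with each array left out, from 0.18 to 0.27, but without FOXA1 3, FOXA1 4, FOXA1 6, GFP 2, GFP 3 or GFP 5 no member lay under an unadjusted p of 0.05 by limma. Averaged over its probes UNG differed by 0.09 (limma's unadjusted p = 0.283), and there POLA1, at 0.23, was the 1 member under that p (unadjusted p = 0.00801, adjusted p = 1.00). Without GFP 3, FOXA1 3 and FOXA1 4 together UNG differed by 0.11 (limma's unadjusted p = 0.273). A second probe of UNG, at a mean of 8.02, gave -0.03 and did not follow the first (Pearson's r = -0.44 over 12 arrays, as a description). DTL, a substrate receptor that targets CDT1 for degradation, differed by 0.03. CLSPN, a mediator of the replication checkpoint, lay below background at 6.91 against 7.01.

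**Figure D2:**
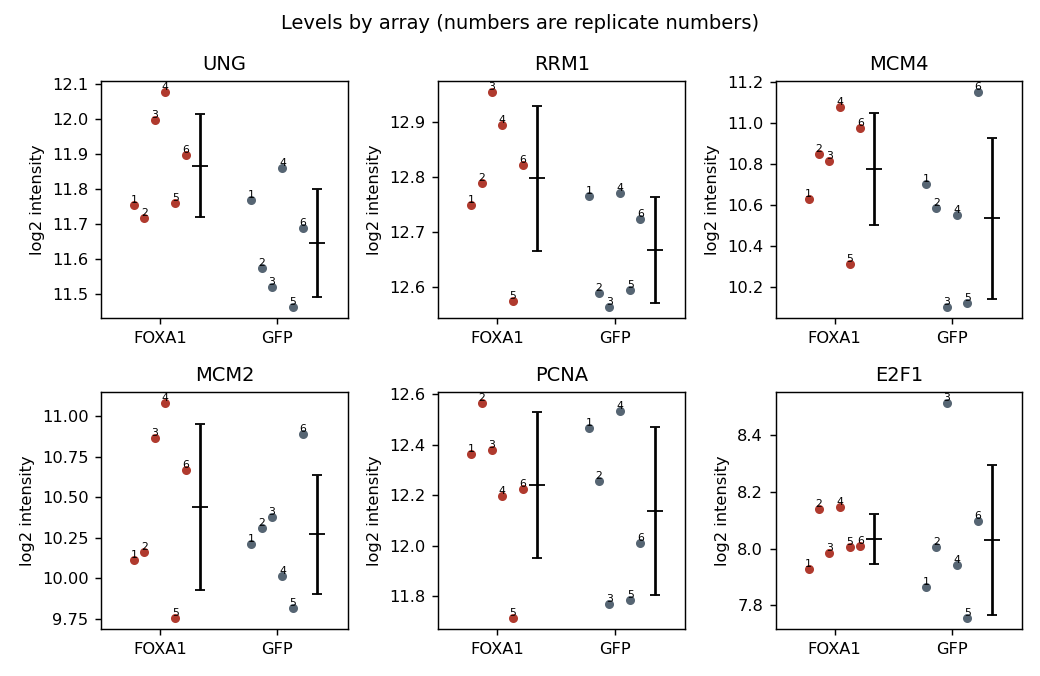
Normalised log2 intensity of UNG, RRM1, MCM4, MCM2, PCNA and E2F1 on each array, with the replicate number beside each point and the mean with its SD (n = 6 per group) at the right of each group; the vertical axes differ between panels. 3 FOXA1 arrays of UNG and 4 of RRM1 lie above every GFP array, the MCM2 extremes are both FOXA1 arrays, and GFP 3 stands alone at the top of E2F1.

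Differences between arrays of one group were larger than the difference between the groups. The median within-group SD of the members was 0.245, against 0.177 for all genes and 0.206 for the 3195 genes in the interquartile range of the members' levels. The median span over the 12 arrays was 0.79 for members and 0.59 for all genes. A score was taken for each array as the mean over the 32 members of the log2 level minus the gene's own mean over the 12 arrays. In the FOXA1 group it ran from -0.24 over a median of 0.08 to 0.17, and in the GFP group from -0.34 over 0.04 to 0.17. GFP 3 (-0.34), FOXA1 5 (-0.24) and GFP 5 (-0.21) stood low, and the 9 other arrays lay between 0.01 and 0.17. Between the groups the score differed by 0.08, beside a within-group SD of 0.17.

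GFP 3 was the lowest of the 12 arrays for 21 of the 32 genes, or 65.6%, while it was the lowest for 17.2% of all genes. On FOXA1 5, 30 of 32 members lay below their own mean, and on GFP 5 it was 29 of 32; of all genes 51.7% and 51.0% did so on these arrays. GFP 6 was the highest array for 7 members and FOXA1 4 for 8, or 21.9% and 25%, against 6.96% and 16.2% of all genes. The low place of GFP 3 was the same with quantile normalization of the non-normalized table (-0.34), with median centring (-0.54, where the median of all genes on that array was -0.10), after background subtraction (-0.46) and with a mean over probes (-0.31). Quantile normalization could hardly differ. The deposited normalized values kept the raw order for at least 99.9958% of neighbouring probes on each array. Their array medians lay between 7.4281 and 7.4292.

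**Figure D3:**
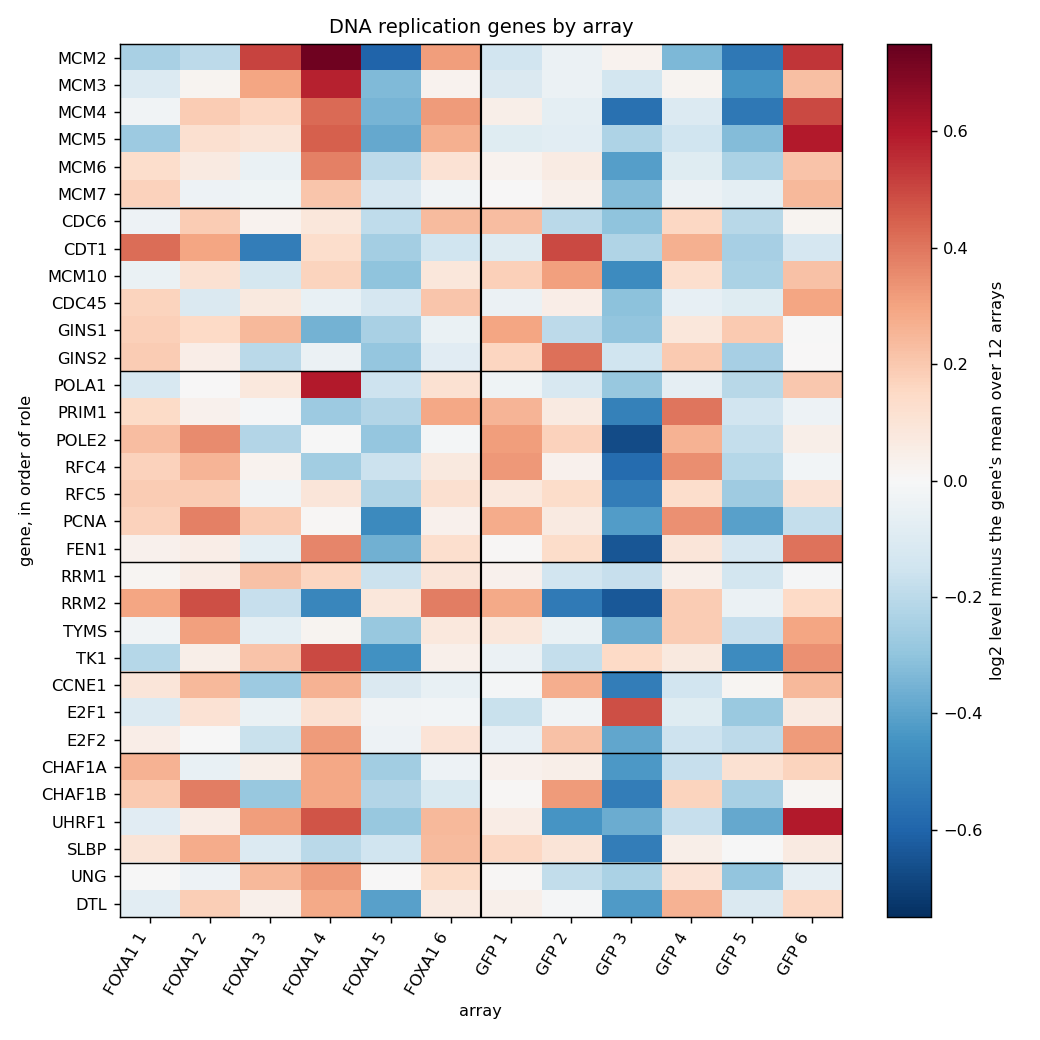
Log2 level of the 32 measured genes on each of the 12 arrays minus the gene's mean over all arrays, genes in order of role with horizontal lines between roles and a vertical line between the FOXA1 and GFP groups. The columns of GFP 3, FOXA1 5 and GFP 5 are mostly blue, with E2F1 red on GFP 3, and the helicase rows are reddest on FOXA1 4 and GFP 6.

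The members moved together over the arrays once the group means were removed. The median Pearson's r over their 496 pairs was 0.492 over 12 arrays, with 89.5% of pairs above 0, beside a median of 0.00544 and 50.5% of pairs for all genes. These are descriptions without a test, since the pairs share arrays and normalization. Without GFP 3 and FOXA1 5, the 2 arrays farthest from the median score, the median was 0.277 with 70.6% of pairs above 0. Within roles the median r was 0.774 for the synthesis machinery, 0.752 for the helicase, 0.522 for nucleotide supply and 0.350 for loading and activation. It was 0.646 for the repair and checkpoint genes, 0.450 for the chromatin replication genes and -0.136 for the regulators of the G1 to S transition. MCM10, FEN1, RFC5, MCM4 and MCM6 were most like the mean of the other members, with r from 0.93 to 0.91. E2F1 was least like it (r = -0.27 over 12 arrays). With every gene scaled to equal spread its r was -0.30 over 12 arrays and 0.80 over the 10 without GFP 3 and FOXA1 5.

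The roles did not dip on the same arrays to the same depth. On GFP 3 the synthesis machinery stood at -0.52 and chromatin genes at -0.46, while the helicase stood at -0.27. MCM2 (0.02), TK1 (0.15) and E2F1 (0.48) were the 3 members not below their own mean on that array. On GFP 5 the helicase was lower (-0.36) than the synthesis machinery (-0.22), and on FOXA1 5 the values were -0.33 and -0.27. The helicase was highest on FOXA1 4 (0.46) and GFP 6 (0.38), where the synthesis machinery stood at 0.07 on both. GFP 4 showed the reverse, with 0.22 for the synthesis machinery and -0.12 for the helicase.

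**Figure D4:**
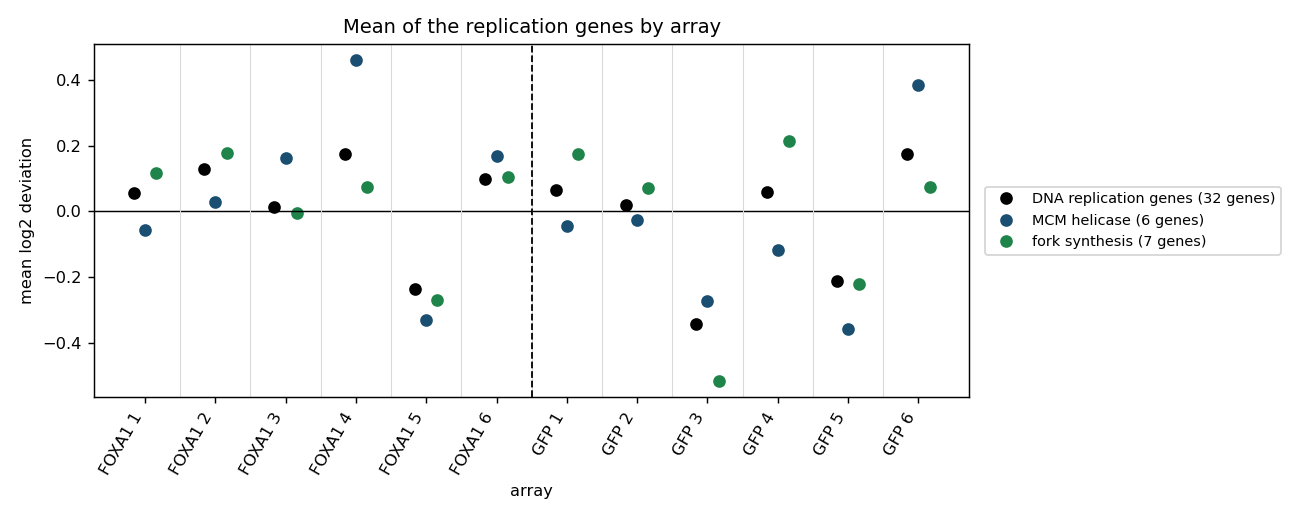
Mean log2 deviation from each gene's own mean, per array, for the 32 measured replication genes (black), the 6 helicase subunits (blue) and the 7 genes of the synthesis machinery (green); the dashed line parts the FOXA1 from the GFP arrays. All 3 means are low on FOXA1 5, GFP 3 and GFP 5, with the green point lowest on GFP 3 (-0.52) and the blue points highest on FOXA1 4 (0.46) and GFP 6 (0.38).

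The members' promoters were read from RefSeq (GRCh38.p14), in windows of 250 bases before to 50 bases after a start site. Whether the motifs in them had a part in the shared movement over the arrays was not tested. Windows were found for 31 of the 34 genes and not for MCM4, MCM5 and CCNE2. The E2F core was searched on both strands as TTGGCGC, as TTCCCGC, as TTGCCGC or as TTCGCGC, the last letters of the known E2F consensus, and the CCAAT box, the site of the factor NF-Y, as CCAAT. An E2F core was found for 26 of 31 members, or 83.9%, against 23.9% of the 9946 tested genes with a window, and in 70.7% of the members' windows against 13.0% of all 35116. A CCAAT box was found for 21 of 31 members, or 67.7%, against 43.9% of tested genes, and in 68.3% of windows against 34.6% of all. The cell cycle homology element of mitotic genes, TTTGAA, was found for 2 of 31 members, or 6.45%, against 14.3% of tested genes, and in 4.88% of windows against 15.2% of all. The windows shown, 5′ to 3′, belong to the members most like the rest (MCM10, FEN1), to the next ones with an E2F core (RFC5, MCM6, picked after the matches were seen) and to the least like, E2F1. Capitals mark E2F cores and CCAAT boxes on either strand.
MCM10: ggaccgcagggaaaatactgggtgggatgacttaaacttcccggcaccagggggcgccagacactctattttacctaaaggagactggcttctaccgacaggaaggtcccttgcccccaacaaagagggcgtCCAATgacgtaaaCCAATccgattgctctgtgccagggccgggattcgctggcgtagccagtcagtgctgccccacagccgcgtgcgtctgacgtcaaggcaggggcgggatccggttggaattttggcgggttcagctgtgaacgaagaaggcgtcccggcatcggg
FEN1: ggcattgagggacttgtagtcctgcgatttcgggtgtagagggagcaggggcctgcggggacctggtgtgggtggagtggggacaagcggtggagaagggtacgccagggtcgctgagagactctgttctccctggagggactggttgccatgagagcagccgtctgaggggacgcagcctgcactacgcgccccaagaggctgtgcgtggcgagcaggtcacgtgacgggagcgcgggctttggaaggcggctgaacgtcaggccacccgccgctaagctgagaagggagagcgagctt
RFC5: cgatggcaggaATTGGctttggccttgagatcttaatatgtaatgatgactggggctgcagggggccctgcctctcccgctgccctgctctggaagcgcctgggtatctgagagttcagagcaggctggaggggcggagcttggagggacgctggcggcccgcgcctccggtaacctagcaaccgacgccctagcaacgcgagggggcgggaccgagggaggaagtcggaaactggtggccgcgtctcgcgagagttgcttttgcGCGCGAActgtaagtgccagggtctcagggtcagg
MCM6: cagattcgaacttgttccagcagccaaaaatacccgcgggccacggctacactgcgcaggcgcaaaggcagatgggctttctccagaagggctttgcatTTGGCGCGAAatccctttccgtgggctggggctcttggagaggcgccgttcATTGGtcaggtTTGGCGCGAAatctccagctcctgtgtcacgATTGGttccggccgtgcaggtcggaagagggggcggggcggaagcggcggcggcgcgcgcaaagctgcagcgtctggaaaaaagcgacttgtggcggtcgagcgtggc
E2F1: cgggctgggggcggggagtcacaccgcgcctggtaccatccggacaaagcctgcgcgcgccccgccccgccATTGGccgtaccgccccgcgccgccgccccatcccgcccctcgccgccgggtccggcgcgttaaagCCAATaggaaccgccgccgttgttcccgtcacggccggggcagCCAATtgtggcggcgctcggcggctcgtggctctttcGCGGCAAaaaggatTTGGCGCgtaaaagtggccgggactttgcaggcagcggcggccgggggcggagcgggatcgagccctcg

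The MCM10 window (chr10:13161308-13161607, plus strand) held 2 CCAAT boxes and no E2F core, and the FEN1 window (chr11:61792661-61792960, plus strand) held neither motif. RFC5 (chr12:118016453-118016752, plus strand) had 1 E2F core just after the start site and 1 CCAAT box. MCM6 (chr2:135876394-135876693, minus strand) had 4 E2F core matches, in 2 pairs that overlap on opposite strands, between -151 and -80 from the start site, and 2 CCAAT boxes. E2F1 (chr20:33686336-33686635, minus strand) had 2 E2F cores and 3 CCAAT boxes.

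Other genes of replication came from a list of 50. Of 49 measured, 31 were higher and 18 lower, with a median of 0.05 and a range from -0.30 to 0.25, and 0 rose and 0 fell by limma's adjusted p, with 1 at an unadjusted p under 0.05. DNMT1, the maintenance methyltransferase, differed by 0.25 ± 0.11 (SE), with an exact permutation p of 0.0476. POLE3, a histone-fold subunit of polymerase epsilon, differed by 0.22 ± 0.10 (SE) with GFP 3 as its lowest array and an exact permutation p of 0.0152; limma's adjusted p was 1.00 for both. POLD3 (0.15) and RFC1 (0.14), subunits of polymerase delta and of the clamp loader, were higher, while RNASEH2A (-0.13), a subunit of the nuclease that removes RNA primers, and the clamp loader subunit RFC2 (-0.30) were lower, none of them by the test. CDCA7, a chromatin remodelling cofactor, DSCC1, a clamp loader partner in cohesion, and CDC7, the kinase that fires origins, were most like the members' score, with r of 0.93, 0.87 and 0.86 over 12 arrays. Of the 49 genes 42 had an r above 0 with that score. On GFP 3 this list stood at -0.19 and on FOXA1 5 at -0.17.

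Lists of other programmes were read on the same arrays. Mitosis genes followed the replication genes: their mean was -0.24 on GFP 3, -0.24 on FOXA1 5 and -0.27 on GFP 5, and all 30 had an r above 0 with the replication score. Of these 30, 21 were higher and 9 lower, with a median of 0.06, BUB1B, a spindle checkpoint kinase, at 0.37 and the centrosome kinase NEK2 at 0.25. Growth arrest genes, with 9 of 13 higher and a median of 0.08, included RBL2 (0.34) and RB1 (0.22), both pocket proteins that hold E2F in check; their mean ran from -0.21 on GFP 2 to 0.19 on FOXA1 3. By limma's adjusted p, 0 genes of these lists changed, with 1 in each at an unadjusted p under 0.05.

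Among the 3 arrays with low replication scores, FOXA1 5 and GFP 5 were alike in hypoxia and interferon genes, and GFP 3 differed from both. Hypoxia genes were highest on GFP 3 (0.94), and next on FOXA1 3 (0.81), where the replication score was 0.01. Then came FOXA1 4 (0.32), where the replication score was 0.17, the highest of the FOXA1 arrays. On FOXA1 5 and GFP 5 the hypoxia genes stood at -0.41 and -0.40. Interferon genes were highest on FOXA1 5 (0.58) and GFP 5 (0.55) and stood at -0.27 on GFP 3. Luminal markers were also highest on GFP 3, with all 7 above background and a mean deviation of 0.38. The endothelial marker VWF stood at 10.03 on GFP 3 and at 8.36 on GFP 5, its highest and lowest arrays, while the 2 others of its list, PECAM1 and CDH5, lay below background. The mean level of these 3 ran from 7.50 to 8.02 on FOXA1 arrays and from 7.51 to 7.97 on GFP arrays. The part of these programmes and markers in the replication scores was not tested. Between the groups, 9 of 15 hypoxia genes were higher (median 0.02; ADM, a vasodilator peptide, at -0.12 and lactate dehydrogenase LDHA at 0.10) and 6 of 16 interferon genes (median -0.06; IFIT3 at -0.22 and the ISG15 ligase HERC5 at 0.18), with 0 past limma's adjusted p and 0 at an unadjusted p under 0.05. The median r of these lists with the replication score was -0.18 and -0.34 over 12 arrays.

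**Figure D5:**
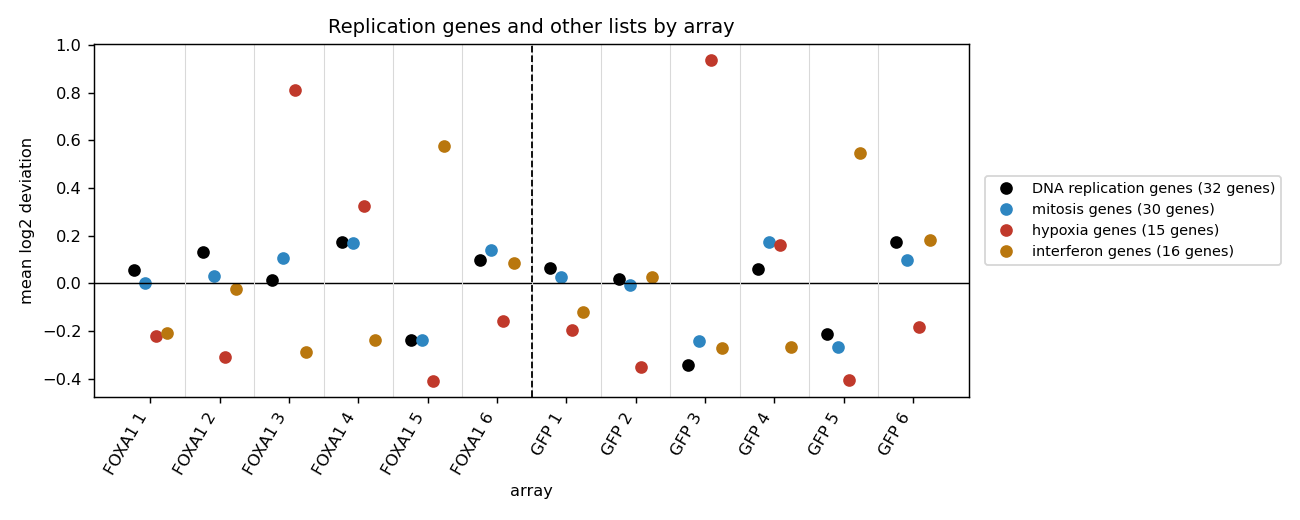
Mean log2 deviation per array for the 32 replication genes (black), 30 mitosis genes (blue), 15 hypoxia genes (red) and 16 interferon genes (brown); the dashed line parts the FOXA1 from the GFP arrays. Black and blue points lie close together on most arrays, red is highest on GFP 3 (0.94) and FOXA1 3 (0.81), and brown is highest on FOXA1 5 (0.58) and GFP 5 (0.55).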

How the data were processed

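Biotin-labelled cRNA of 12 samples was read on Illumina bead arrays. The authors deposited log2 values in a non-normalized table of 48107 probes and a normalized one of 47323, which was used here. How they were summarised and normalised is not given in the sources used here. Groups come from the titles. Leaving out 6 probes with a missing value, probes took their gene from the platform annotation (30113 with 1 symbol, 8 with several, 17202 unnamed). Those brighter on average than the median probe were kept, which gave 12420 genes, each with its brightest probe. Background was estimated from the 784 probes found in the non-normalized table alone. FOXA1 and GFP arrays were tested by limma 3.58.1 (R 4.3.3; lmFit and eBayes, no covariate, Benjamini-Hochberg over all genes), tested on simulated data. Exact permutation used all 924 arrangements, two-sided, and cannot give a p below 0.00216. The number of arrays limits the precision. Members and lists were chosen with earlier results of these data known. The naming rule took FOXA1, all 34 members, from the other replication genes the 6 of smallest p and the 3 most like the score, 2 genes of smallest p from each other list, and the brightest marker of each cell type. Some listed genes are not analysed here. Alternatives covered scaling, background, filters, probes, weights, blocking and left-out arrays.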

Additional observations from a re-analysis of the deposited data

Results flagged for a closer look

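For each of the 34 genes and for the mean of each list, the highest or lowest array of each group was set against the nearest other array, as a share of the group's range, and compared with Dixon's critical value for 6 arrays. Of 94 such groups 3 passed, where chance alone passes about 1 in 20. MCM5 on GFP 6 stood high, at 10.66 with the next GFP array at 9.99 (share 0.73). POLA1 on FOXA1 4 stood high, at 9.97 with the next FOXA1 array at 9.49 (share 0.644). SLBP on GFP 3 stood low, at 10.27 with the next GFP array at 10.79 (share 0.772).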

How the results depend on the processing

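In each of the alternatives run, 0 genes and 0 members passed limma's adjusted p. Members at an unadjusted p under 0.05 numbered 0 to 3 with an array left out, and 0 with array weights, background subtraction or median centring. All genes at that p numbered 116 to 416 with an array left out, 508 without a filter and 79 with a filter at the upper quartile, beside 203. With an array left out, the members' median ran from 0.0095 to 0.13 and the score difference from 0.02 to 0.13. Without GFP 3, FOXA1 3 and FOXA1 4 the median was -0.00388 and the score difference -0.00971. Single genes changed sign, and the cause was not tested. With array weights POLE2 was -0.048, RFC4 -0.00891, FEN1 -0.027, TYMS -0.016 and DTL -0.040. Averaged over probes, MCM7 was -0.14, MCM10 0.034 and CCNE1 -0.020. With median centring CDT1 was 0.039, MCM10 0.025 and PRIM1 0.051. Without the 3 arrays MCM2 was -0.076, MCM3 -0.025, MCM5 -0.057, MCM7 -0.036, CDT1 0.019, POLE2 -0.052, RFC4 -0.00939, FEN1 -0.14, TYMS -0.052, TK1 -0.091, CCNE1 -0.033, CHAF1A -0.062 and DTL -0.13. With an array left out, MCM7 ran from -0.00571 to 0.11, CDT1 from -0.11 to 0.077, MCM10 from -0.14 to 0.015, CDC45 from -0.00242 to 0.12, GINS1 from -0.090 to 0.041 and PRIM1 from -0.11 to 0.068. POLE2 ran from -0.11 to 0.084, RFC4 from -0.076 to 0.11, FEN1 from -0.081 to 0.13, TYMS from -0.066 to 0.067 and TK1 from -0.053 to 0.14. CCNE1 ran from -0.048 to 0.11, E2F1 from -0.050 to 0.10, CHAF1B from -0.012 to 0.16, SLBP from -0.047 to 0.097 and DTL from -0.054 to 0.11. Arrays of the same number deviated together with r from -0.268 to 0.638, above 0.1 in 5 of 6 pairs, and 4 of 12 arrays correlated best with their own number. The r was 0.638 for the arrays numbered 5 and 0.531 for those numbered 3. The labels give the numbers no meaning and 1 pair lay below 0.1, so the numbers were not taken as pairs. With the replicate number as a block, 335 genes, 1 of them a member, lay at an unadjusted p under 0.05 by limma, and 0 members passed. Each number occurs once per group, so a block changes the p-values and intervals and cannot change the differences. The members' median was 0.07 as before. The counts of intervals within 1.5-fold come from the fit without a block. With it, the interval of MCM4 ran from -0.00343 to 0.49 and that of UHRF1 from -0.05 to 0.52. That of RRM1 was slightly wider than without it, from -0.05 to 0.31. Background limits CDC6, GINS1, CCNE2 and CLSPN, which stood at or below it.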
